A study of Homo sapiens with 2 samples.

Results

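The 5 entries hsa-miR-1260a, hsa-miR-1260b, hsa-miR-4454, hsa-miR-7975 and hsa-miR-7977 are listed as miRNAs but have sequences that resemble fragments of transfer RNA (tRNA) or of other abundant small RNA. They were chosen by name, from a list made for this likeness, in both scanner files, and 4 of the 5 were read among 2549 miRNAs. Their likeness to tRNA was not checked against tRNA sequences here. miR-4454 is not analysed here on the arrays, and only its reference sequence is given. The RNA was that of exosomes, vesicles that cells shed, from the human hypopharyngeal squamous carcinoma line FaDu. For each group 200 ng was hybridized to a one-colour Agilent miRNA array, 1 array for cells given a control plasmid (oe-NC) and 1 for cells given a plasmid that overexpresses HOTTIP (oe-HOTTIP), a long noncoding RNA transcribed from the HOXA locus. The labels describe delivery by lentivirus in both groups, whereas the methods describe plasmids transfected with a lipid reagent. The time between transfection and exosome collection is not given in the sources used here. The description of each array contradicts its title and treatment as to the group. The arrays are called by their titles here, and every direction turns round if the descriptions are right. With 1 array per group no difference has a replicate check and no p-value was computed.

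Mature tRNAs carry the amino acid on a 3′ end of the letters CCA, which an enzyme adds after transcription and which human nuclear tRNA genes do not encode. Cells cut tRNAs into shorter pieces, under stress and otherwise, and such pieces are common in the RNA of extracellular vesicles and of serum. A miRNA, in contrast, is cut by Drosha and Dicer from a hairpin precursor and finds its targets mainly through its seed. Several entries of early miRNA catalogues were later withdrawn because they were pieces of tRNA.

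The mature sequences are shown first with the seed, bases 2 to 8, in capitals, because the seed defines miRNA families. They are RefSeq sequences of the build GRCh38.p14.
miR-1260a: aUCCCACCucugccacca
miR-1260b: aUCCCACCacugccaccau
miR-4454: gGAUCCGAgucacggcacca
miR-7975: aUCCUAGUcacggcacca
miR-7977: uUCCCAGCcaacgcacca
Only miR-1260a and miR-1260b shared a seed, and no other mature miRNA of the reference table held it. The seeds of miR-4454, miR-7975 and miR-7977 were each found in no other entry.

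The 3′ ends were more alike than the seeds. The same sequences are shown with their last occurrence of CACCA in capitals, because these letters were found in all 5.
miR-1260a: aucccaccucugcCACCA
miR-1260b: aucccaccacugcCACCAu
miR-4454: ggauccgagucacggCACCA
miR-7975: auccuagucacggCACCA
miR-7977: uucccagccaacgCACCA
miR-1260a, miR-4454, miR-7975 and miR-7977 ended in CCA exactly, and miR-1260b had 1 base after it. Among 2370 mature miRNAs of the table, 45 ended in CCA (1.90%) and 6 in CACCA (0.253%), of which 4 were the entries described here. miR-4252 and miR-876-5p were the others. The entries were listed for their likeness to tRNA, and the letters CACCA were picked because all 5 held them. These shares therefore describe the entries and test nothing. miR-4454 and miR-7975 shared their last 13 bases, AGUCACGGCACCA. Aligned at the 3′ end over 18 bases they differed by G5U, counted from the 5′ end of miR-7975, with the base of miR-4454 first. miR-1260a and miR-1260b, aligned at the 5′ end, differed over 18 bases by U9A, with the base of miR-1260a first. The probes of miR-1260a and miR-1260b may bind each other's RNA, and those of miR-7975 may bind that of miR-4454. Neither was tested. The sequences were also short, at 18 to 20 bases against a median of 22. Their G and C content was 55.6% to 65.0%, against a median of 52.2%.

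The annotated loci lay apart from tRNA genes. miR-1260a is at chr14:77266231-77266248 on the plus strand, within the span of NGB, the gene of neuroglobin. miR-1260b is at chr11:96341447-96341465 on the plus strand, within the span of MAML2, which encodes a coactivator of Notch signaling. Whether these positions are exonic or intronic was not analysed here. miR-4454 at chr4:163093607-163093626 (minus strand), miR-7975 at chr19:55123225-55123242 (minus strand) and miR-7977 at chr3:176515103-176515120 (plus strand) overlapped no other gene of the table. None of the 5 overlapped any of the 465 tRNA genes in it, and the nearest on the same chromosome was 4303189 bases away from miR-1260a and farther from the others. A hairpin sequence was at hand for 3 entries, shown with the mature part in capitals to give the letters that follow it in the genome.
miR-1260a: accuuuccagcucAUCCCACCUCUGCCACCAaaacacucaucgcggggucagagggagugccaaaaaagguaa
miR-1260b: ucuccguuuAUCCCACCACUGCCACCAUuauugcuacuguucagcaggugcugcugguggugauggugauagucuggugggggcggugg
miR-7977: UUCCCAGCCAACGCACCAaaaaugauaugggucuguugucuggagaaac
In these hairpins CCA was thus part of the genomic sequence, and that of miR-7977 began with the first base of the mature sequence. The predicted folding energy of the miR-1260a hairpin was -20.2 kcal/mol over 73 bases, or -0.28 per base, and only 4.62% of 1560 RefSeq hairpins were less stable per base. For miR-7977 it was -15.0 kcal/mol over 49 bases, or -0.31 per base, with 9.68% less stable. The hairpin of miR-1260b, at -41.1 kcal/mol over 89 bases and -0.46 per base, was close to the median of -0.45. The precursors of miR-1260a and miR-7977 were thus predicted to fold less firmly than most.

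On the arrays, each of the 4 measured entries had 2 probes with 10 spots each, and an intensity is the background-subtracted signal of a spot in arbitrary units. After removal of control and outlier spots, means were taken over the spots of a probe and then over the probes of a miRNA, and the SD given is that over spots within probes, which is technical error within an array. By the detection flag of the scanner software, 328 miRNAs were detected in oe-NC, 390 in oe-HOTTIP and 261 on both arrays. All 4 entries were among these 261. Intensities of different probes are not ranked against each other, since probes bind with different strength.

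The intensity of miR-7975 was 6627 ± 439 in oe-NC and 11436 ± 1180 in oe-HOTTIP (SD, 20 spots each). For miR-7977 it was 1777 ± 93.1 (SD, 18 spots) and 4384 ± 480 (SD, 20 spots). Every spot of both entries that was kept was well above background, and none was saturated. miR-1260b was far dimmer, at 15.4 ± 4.20 and 42.7 ± 6.35 (SD, 18 spots each), and so was miR-1260a, at 7.66 ± 4.70 and 22.7 ± 7.48 (SD, 20 spots each). Negative control spots had 3.87 ± 2.37 (SD, 976 spots) and 3.45 ± 2.21 (SD, 975 spots), and miR-1260a in oe-NC exceeded their mean by less than its own SD. Before any scaling all 4 were thus brighter on the array labelled oe-HOTTIP, by 2.96-fold for miR-1260a, 2.77-fold for miR-1260b, 1.73-fold for miR-7975 and 2.47-fold for miR-7977. That array was brighter as a whole, and the 261 miRNAs had a median of 0.67 on the log2 scale before scaling. Its labelling spike-ins dmr_285 and dmr_31a were brighter by 0.80 and 0.47 on the log2 scale.

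Single probes showed where this signal came from. Probe 1 of miR-1260a had a mean of -0.055 (from -2.15 to 2.65, median -0.54) in oe-NC and of 1.77 (from -2.16 to 5.35, median 1.93) in oe-HOTTIP. No spot of it was well above background on either array, so it gives no difference. Probe 2 had 15.4 ± 6.42 (from 4.78 to 23.2, median 16.4) and 43.6 ± 10.3 (from 30.9 to 58.9, median 43.2), and 7 of 10 and 10 of 10 spots were well above background. The whole signal of miR-1260a therefore rested on that probe.

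The same held for miR-1260b. Its probe 1 had means of -1.20 and -0.77 over 8 spots on each array, with none well above background. Its probe 2 had 32.0 ± 5.30 (from 23.2 to 38.3, median 32.4) and 86.1 ± 8.47 (from 74.8 to 100.1, median 85.2), with all 10 spots well above background on both arrays. Averaging a probe with no measurable signal into the miRNA lowered the intensities of both entries, but hardly their differences. After scaling, as described next, probe 2 alone gave a log2 difference of 0.85 for miR-1260a and 0.78 for miR-1260b.

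Both probes of miR-7975 and miR-7977 were measured. Probe 1 of miR-7975 had 2744 ± 243 (from 2344 to 3163, median 2774) and 5229 ± 455 (from 4585 to 6004, median 5399). Probe 2 had 10511 ± 572 (from 9860 to 11700, median 10542) and 17644 ± 1606 (from 15451 to 19793, median 18019). Before scaling the spots of the arrays did not overlap for either probe. Probe 1 of miR-7977 had 1046 ± 53.3 (from 944 to 1127, median 1043) and 2885 ± 203 (from 2547 to 3168, median 2863). Probe 2 had 2508 ± 120 (from 2271 to 2653, median 2507) and 5882 ± 647 (from 4847 to 6610, median 6014). These did not overlap either. Relative to the mean, the spots of the 4 probes varied by 4.80% to 11.0%, against 41.8% and 23.5% for probe 2 of miR-1260a and 16.6% and 9.83% for probe 2 of miR-1260b.

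**Figure D1:**
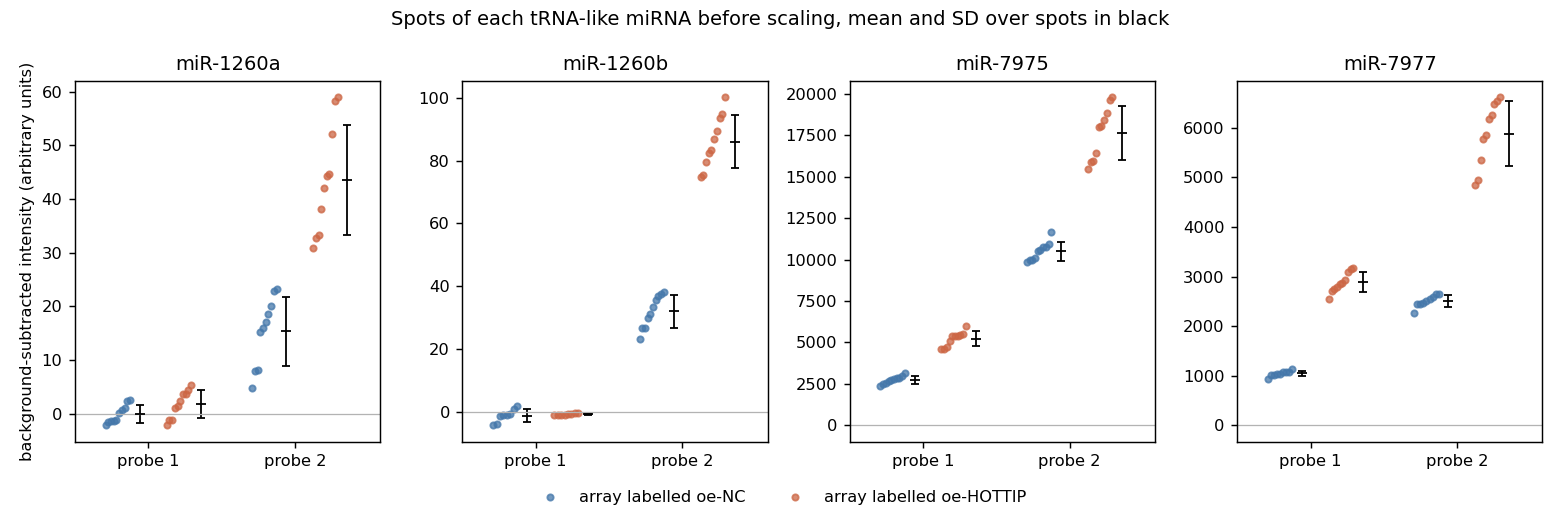
Background-subtracted intensity before scaling of each spot (outlier spots left out, sorted by value) for both probes of the 4 measured tRNA-like miRNAs, with the mean and SD over spots in black. The y axes differ between panels. Probe 1 of miR-1260a and of miR-1260b lies around 0 on both arrays, and every other probe is brighter on the array labelled oe-HOTTIP.

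To set the arrays on one scale, signals were expressed relative to the 90th percentile of the 261 shared miRNAs, which was 279.9 in oe-NC and 439 in oe-HOTTIP. The difference left, oe-HOTTIP minus oe-NC, was 0.91 for miR-1260a on the log2 scale (1.88-fold), with a spread of 1.01 over spots. It was 0.82 for miR-1260b (1.77-fold) with a spread of 0.45, and 0.65 for miR-7977 (1.57-fold) with a spread of 0.18. For miR-7975 it was 0.14 (1.10-fold) with a spread of 0.18. Averaged over probes, the differences of miR-1260b and miR-7977 exceeded their technical spread, whereas those of miR-1260a and miR-7975 did not. That of miR-1260a is not well measured, since its oe-NC signal, averaged over both probes, was near the negative controls. On probe 2, its only probe with measurable signal, the difference was 0.85, above its spread of 0.69. All 4 stood above 0, and none reached the 2-fold threshold of the methods in either direction. Among the 261 miRNAs 21.1% were at least 2-fold lower and 18% at least 2-fold higher, so the absence of calls among 4 entries is no result about them. With lower bounds for miRNAs detected on 1 array, 25.2% of 457 were lower and 33.9% higher. The 4 tRNA-like entries had a median log2 difference of 0.74, beside 0.024 over all 261, of which 51.7% were above 0. The middle of all differences, from the lower to the upper quartile, ran from -0.66 to 0.73, and miR-1260a and miR-1260b stood above that range.

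**Figure D2:**
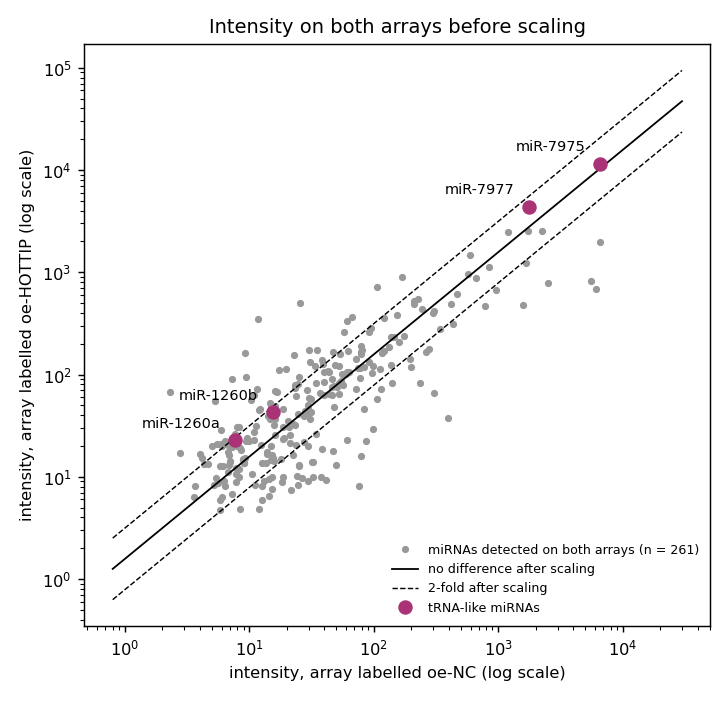
Intensity before scaling on the array labelled oe-NC (x) and on the array labelled oe-HOTTIP (y), both on log scales, for the 261 shared miRNAs. The solid line marks no difference after scaling and the dashed lines 2-fold. The 4 tRNA-like miRNAs lie above the solid line and inside the dashed lines, miR-7975 closest to the solid line.

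After scaling, the spots of 3 of the 6 member probes with measurable signal still did not overlap between the arrays. These were probe 2 of miR-1260b and both probes of miR-7977. Over 436 probes with a spot well above background on both arrays, 27.3% had all spots higher on the array labelled oe-HOTTIP and 25.2% all lower. Before scaling all 6 did not overlap, beside 46.6% that were higher and 15.8% that were lower over the same 436 probes. Probes of 1 entry had the same sign but not the same size. For miR-7977 probe 1 gave 0.81 and probe 2 gave 0.58, apart by 0.23 with a standard error from spots of 0.068. For miR-7975 they gave 0.28 and 0.097, apart by 0.18 with a standard error of 0.075.

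Within the group, miR-7975 stood apart from miR-7977 and miR-1260b beyond the combined spread over spots. Its log2 difference was lower than that of miR-7977 by 0.52, which fell outside the combined spread over spots of 0.25, and the standard error from the number of spots was 0.056. It was lower than that of miR-1260b by 0.68, with a spread of 0.48. With normexp and an offset of 50 this order turned round, at 0.20 for miR-7975 and -0.13 for miR-1260b. The gap of 0.78 to miR-1260a was within the spread of 1.02, though its standard error from the number of spots was 0.23. That spread includes the probe of miR-1260a without measurable signal. The near-identical miR-1260a and miR-1260b were apart by 0.094, with a spread of 1.10, and both were within the spread of miR-7977, from which they were apart by 0.26 and 0.17. These errors cover spots of 2 arrays, not separate cultures.

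The direction of the single entries depended on the processing, as the plot of the differences under each processing shows. Under the 14 scaled settings of the scanner output tried beside the one reported, miR-7977 was above 0 in each, from 0.48 to 1.73. miR-1260b ranged from -0.13 to 1.31 and miR-1260a, which had a value in 12 of them, from -0.26 to 0.97, both below 0 with normexp and an offset of 50. miR-7975 ranged from -0.034, with the 90th percentile over all miRNAs, to 0.62, and was close to 0 with the median as scale and 0 with quantile normalization. The last value follows from the method, since miR-7975 had the highest signal of both arrays. In the authors' normalized table, in which each column tracks the scanner output of the other array, the values for oe-NC and oe-HOTTIP were 2.23 and 1.59 for miR-1260a, 3.17 and 2.54 for miR-1260b, 10.5 and 9.05 for miR-7977, and 11.3 and 11.4 for miR-7975, on the log2 scale. As named, these columns put miR-1260a, miR-1260b and miR-7977 lower in oe-HOTTIP and miR-7975 slightly higher. With the columns exchanged they gave 0.64, 0.63 and 1.44 for the first and -0.17 for miR-7975, so that it differed in sign from the scanner output reported here.

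**Figure D3:**
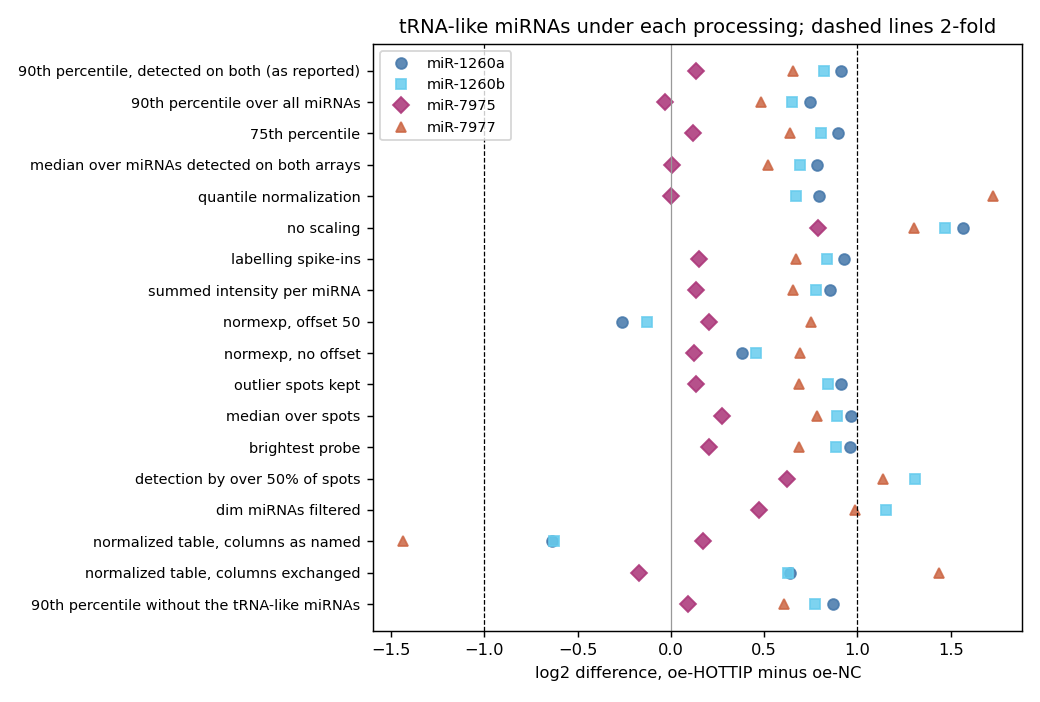
Log2 difference, oe-HOTTIP minus oe-NC, of each of the 4 measured tRNA-like miRNAs (x) under the processing reported and each alternative (y), with dashed lines at 2-fold. miR-7975 stays nearest to 0 under most settings, miR-1260a and miR-1260b fall below 0 with normexp and an offset of 50, and the table as its columns are named turns the sign of 3 entries.

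Other entries that come from non-miRNA transcripts were set beside these, from lists fixed by their origin. miR-1246, whose sequence matches a piece of the U2 spliceosomal RNA, went from 173.8 ± 117 to 239.7 ± 122 (SD, 20 spots each), which left -0.19 after scaling, within its spread of 1.22. miR-1290 had 5.47 ± 2.84 and 21.0 ± 8.67 (SD, 20 spots each). The first of these exceeded the mean of the negative controls by less than its SD. The fold of miR-1290, like that of miR-1260a averaged over both probes, is therefore not well measured. Of 7 entries at mitochondrial or ribosomal RNA loci, 4 were detected on both arrays. miR-4485-5p stood at -2.39, from 6580 ± 615 (20 spots) to 1976 ± 140 (18 spots), and was at least 2-fold lower. miR-4485-3p had 2.29 ± 2.26, no higher than the negative controls, and 66.8 ± 8.92 (20 spots each), so that its fold was not measured. miR-3648 and miR-6724-5p of the ribosomal DNA repeats had 1.87, which was at least 2-fold higher, and 0.66. miR-1973 was detected only in oe-HOTTIP, at 14.0 ± 4.16 beside -0.55 ± 1.72 in oe-NC (20 spots each), and miR-4461 and miR-3687 on neither array. None of 11 entries at snoRNA loci was detected on both arrays, and 2, miR-664b-5p and miR-3651, only in oe-HOTTIP. The names miR-720, miR-1274a, miR-1274b, miR-1280 and miR-1308, tRNA pieces once listed as miRNAs, were found for 0 of 5 among the array's miRNAs.

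Of 39 other miRNAs on the array that ended in CCA, 35 were detected on neither array, 3 on 1 array and 1 on both. Among all 2549 miRNAs 82.1% were detected on neither array and 10.2% on both. Where a sequence was matched, miRNAs ending in CCA made up 1.83% of those detected on both and 1.87% of those on the array. Both shares also count miR-1260a, miR-7975 and miR-7977, so they do not describe the 39 others alone. The tRNA-like entries detected on both include miR-1260b, which does not end in CCA. The 1 of the 39 others detected on both was miR-223-3p, a miRNA of myeloid cells. It went from 9.53 ± 5.86 (19 spots) to 24.1 ± 11.7 (17 spots). Its scaled difference was 0.69, within its spread of 1.13, and its oe-NC signal was near background. miR-4252, which shares the last 6 bases GCACCA with miR-7975 and miR-7977, had intensities of -0.55 and -0.37 and was detected on neither array. miR-876-5p, the other further entry with a CACCA end, had 0.96 and 1.17 and was not detected either. By the distance of log2 differences over 2 arrays, the miRNAs most like the median of the group were miR-1268b (0.73), miR-6068 (0.74) and miR-5100 (0.76).

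**Figure D4:**
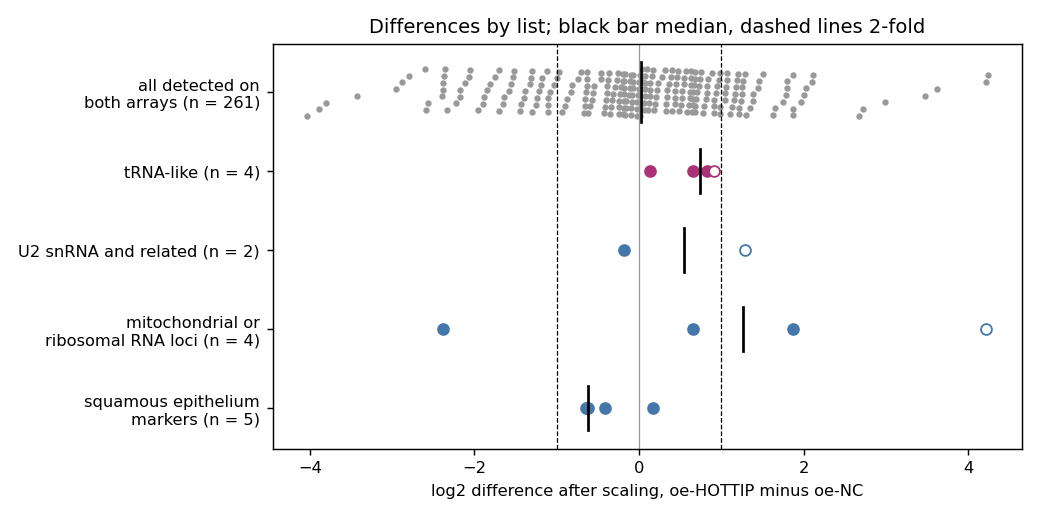
Log2 difference after scaling, oe-HOTTIP minus oe-NC (x), of all miRNAs detected on both arrays, of the tRNA-like ones and of those on 3 comparison lists (y), with the median as a black bar and dashed lines at 2-fold. Open points, as means over probes, exceed the mean of the negative controls by less than their own SD on an array. Their position is not well measured (miR-1260a, miR-1290 and miR-4485-3p, the point farthest right). The tRNA-like miRNAs lie between 0.14 and 0.91.

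Of 6 miRNAs that mark squamous epithelium, 5 were detected on both arrays (miR-205-5p, miR-200b-3p, miR-200c-3p, miR-141-3p and miR-31-5p) and miR-203a-3p on neither. The summed intensity of the 6 was 527 and 632, and the median log2 difference of the 5 detected on both was -0.62. Of 5 miRNAs of blood cells or serum, which culture medium can carry, 4 were detected on both arrays and miR-142-3p on neither. The summed intensities of the 5 were 2267 and 2600, and the median log2 difference of the 4 detected on both was -0.20. Most of this sum came from miR-451a, at 2233 and 2552, and most of the epithelial sum from miR-205-5p, at 415 and 490. The blood miRNAs went both ways, with log2 differences of -0.46 for miR-451a, -1.75 for miR-486-5p (near background in oe-HOTTIP), 0.69 for miR-223-3p and 0.064 for miR-122-5p. The signs of both medians depended on the scaling, since before it they were 0.027 for the epithelial and 0.45 for the blood miRNAs. Their part in the result was not tested. The slide and the scan were the same for both arrays.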

How the data were processed

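Exosomal RNA of FaDu cells was measured on 1 Agilent miRNA array per group. The authors deposited the scanner output with an intensity per spot, as Agilent Feature Extraction wrote it (10.10 in the submitters' processing notes, 11.5.1.1 in the file header). They also deposited a table of log2 values with undetected values at a floor. The methods describe GeneSpring normalization at the 90th percentile, and whether that scaling alone gives the values of this table was not tested. From the scanner output, outlier and control spots were left out, spots and then probes were averaged, arrays were divided by their 90th percentile over miRNAs detected on both, and log2 was taken. A miRNA was called at 2-fold, as in the methods, and with 1 array per group no test between groups was run. Spot SDs of both arrays were combined on the log2 scale as the root of summed squared relative SDs, and for standard errors squares were first divided by the spots averaged. The number of arrays limits the precision.

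The members, lists and alternatives were chosen with earlier results of these data known. Named were the members, list entries detected on both arrays, and the 3 miRNAs nearest to the members' median. Other named miRNAs were chosen after their values were seen. Of the array's 2549 miRNAs, 2248 matched a RefSeq sequence by name. For normexp, median spot and background signals were used. Hairpins were folded with RNAfold of ViennaRNA 2.7.2. The calculation of differences was tested on simulated data with known changes, which says nothing of replicate error. The work used R 4.3.3 with limma 3.58.1, and Python 3.11.15 with pandas 2.3.3, numpy 2.4.6 and matplotlib 3.10.9. Alternatives in scaling, background, spot handling, detection and filtering were tried.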

Additional observations from a re-analysis of the deposited data

How the results depend on the processing

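Without scaling between the arrays, the median of the tRNA-like miRNAs was 1.39, with 3 of 4 at least 2-fold higher, and 63 miRNAs in all were lower and 223 higher (22.0% of calls lower, in place of 42.6%, and 115 and 155). With detection by over 50% of spots, miR-1260a had no value, the median was 1.14, 2 entries were higher, and 39 miRNAs were lower and 106 higher (26.9% lower). With miRNAs filtered that were not over the mean plus 3 SD of the negative controls, miR-1260a had no value, 1 entry was higher, and 25 miRNAs were lower and 44 higher. With normexp and an offset of 50 the median was 0.036 and 26 miRNAs were lower and 8 higher (76.5% lower), and with normexp and no offset it was 0.42, with 53 higher and 61.3% lower. The brightest probe gave 95 higher. Quantile normalization put 1 entry past 2-fold, miR-7977. The normalized table gave a median of -0.63 and 1 entry lower as its columns are named, and 1 higher with the columns exchanged, with 103 miRNAs higher. Under the detection filter 156 miRNAs and under the filter on dim miRNAs 177 were detected on both arrays, in place of 261. The causes of these changes were not tested. The scaling moved the median of the 261 miRNAs too, and relative to the median of all miRNAs with a value that of the entries stood at 0.71 as reported, 0.71 without scaling, 0.66 and 0.67 under the filters and 0.36 with the offset. Leaving the entries out of the percentile, an alternative chosen after seeing the data, gave 0.69. No paired analysis was possible because there was 1 array in each group, and for the same reason no replicate could be left out. miR-1260a is limited by its signal over background.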
